A study of Mus musculus with 20 samples.

Results

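I0-E2 is the exposure setting in which N2A cells, a mouse neuroblastoma line with features of sympathetic neuroblasts, were scanned with a single pulsed laser at the intensity named I0 for 10 µs per pixel, which gave a fluency (energy deposited per unit area) of 47.72 J/cm2. Its 3 libraries were compared with the 3 libraries of the negative control (NC) of the same batch (batch 1), and the sample titles chose these 6 of the 20 libraries of the series. The question was whether this exposure changed gene expression relative to unexposed cells. The dwelling time was 10 µs per pixel in I0-E2, against 2 µs per pixel in I0-E0, the shortest exposure at this intensity, and 20 µs per pixel in I0-E4, the longest. I0-E2 differs from NC by the exposure as a whole, so only I0-E0 and I0-E4 compare dwelling times at a fixed intensity. A further group of batch 1, I2-E2, was scanned at a higher intensity for 2 µs per pixel, to the same fluency as I0-E2. Its 3 libraries are part of the fit of batch 1 and of the ranges given over the batch. NC cells were the same line, kept under the same ambient conditions and lysed alongside with no laser excitation, while whole wells were scanned for the exposed groups and lysed 1 h later. The methods speak of separate wells, but the labels only number the libraries of a group and name no separate cultures, so the p-values rest on differences among libraries that could be technical in origin. RNA was polyadenylated RNA in bulk, in which fewer cells of a kind and less RNA per cell cannot be told apart.

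Mammalian cells answer heat, oxidants and membrane damage with known transcriptional programmes. Heat shock factors raise chaperone genes, NRF2 raises antioxidant enzymes, p53 raises cell cycle inhibitors and repair genes, and the PERK and GCN2 kinases raise ATF4 and CHOP targets. Immediate-early genes such as Fos and Egr1 respond within minutes in neuronal cells, before most other mRNAs.

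The estimated count of a library was 8016573 to 8636798 reads in I0-E2 and 6460014 to 8322567 reads in NC. The summed level of 34 genes of sympathoadrenal neuroblastoma identity was 6994 to 7542 CPM (counts of a library scaled to a common total) in I0-E2 and 6958 to 7219 CPM in NC. The sums of fibroblast, macrophage, epithelial, endothelial, glial and erythroid markers stayed under 15 CPM each in all 6 libraries, and none of the macrophage, epithelial and erythroid markers had enough reads to be tested. The endothelial sum was 8.12 to 10.5 CPM in I0-E2, against 11.6 to 13.7 CPM in NC, without overlap, and its part in the results was not tested. The median absolute log2 difference between libraries was 0.09 to 0.11 within I0-E2, 0.08 to 0.10 within NC and 0.07 to 0.11 between the groups.

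No gene passed an adjusted p of 0.05 in I0-E2 against NC. edgeR's quasi-likelihood test called 0 of 12296 genes (0%), and the smallest adjusted p was 0.993. Without adjustment, p was under 0.05 for 413 genes (3.36%), of which 186 lay above NC (1.51% of those tested) and 227 below (1.85%). limma-voom called 0 genes with 195 above and 237 below at that unadjusted level, limma-trend 0 with 172 and 203, and DESeq2 0 with 104 and 129. These fits took the spread from the 15 libraries of batch 1. With the 6 libraries of I0-E2 and NC alone, edgeR called 0 of 11847 genes, with 348 above and 374 below at the unadjusted level. The unadjusted share thus depended on which libraries set the spread. In 1377 genes (11.2%) the 3 I0-E2 libraries did not overlap the 3 NC libraries, 713 above (5.8%) and 664 below (5.4%).

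The size of change that these libraries could bound depended on the level of a gene. For the 9080 genes at 10 CPM or more the median standard error of the log2 fold change was 0.09, and the 95% confidence interval lay within 0.6 of 0 on the log2 scale for 8880 of them (97.8%). For the 2912 genes between 1 and 10 CPM the median standard error was 0.30 and the interval was that narrow for 22.6%. Below 1 CPM it was that narrow for 0 of 304 genes, so that a change of this size was not detectable there at this depth. Of the genes at 10 CPM or more, 11 had an estimate beyond 0.6, and 2 of these did not overlap between the groups. They were Hist1h2ap, a replication-dependent histone H2A gene at 242 CPM in I0-E2, against 132 CPM in NC, and Gm48111, a predicted gene at 9.17 CPM in I0-E2, against 14.3 CPM in NC. Of their 31-base words, 6.64% and 1.34% occur in no other annotated gene, so their reads could be split among copies, and both were named after their values were seen.

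**Figure D1:**
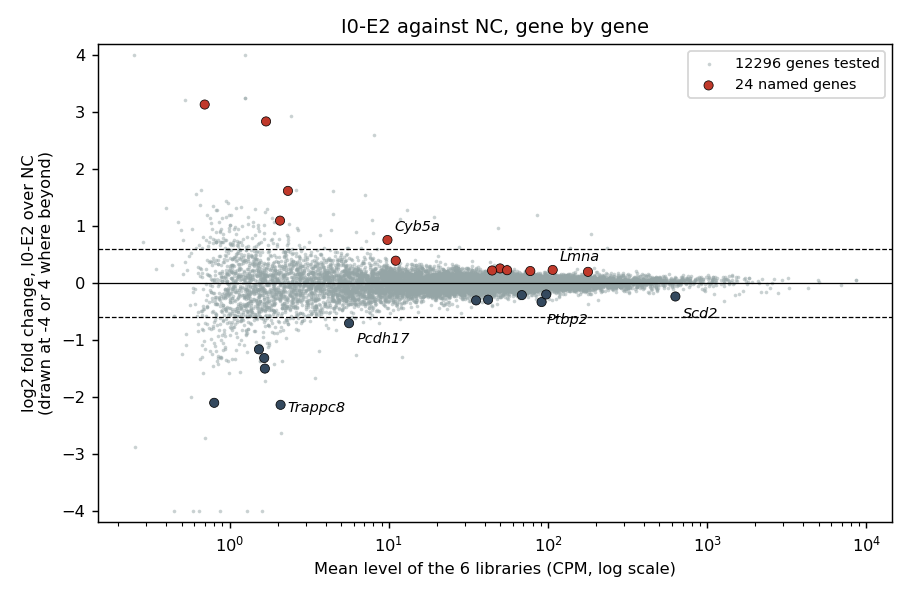
Log2 fold change (I0-E2 over NC) of each of the 12296 genes tested against its mean level in the 6 libraries (CPM, log scale). Large circles are the 24 genes of smallest p whose groups do not overlap, red above and blue below NC, and dashed lines mark 0.6 and -0.6. The points narrow towards 0 as the level grows, and the named genes beyond the dashed lines lie under 10 CPM.

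With no gene past the threshold, the 12 genes of smallest unadjusted p in each direction whose libraries did not overlap are described by their values. Their non-overlap is how they were chosen, and each had an adjusted p of 0.993 by edgeR's quasi-likelihood test. Cyb5a, which encodes the cytochrome b5 that passes electrons to desaturases (chr18:84838704-84879871 of GRCm38), measured 11.7, 12.5 and 12.7 CPM in I0-E2, against 6.26, 7.75 and 7.89 CPM in NC. All 3 I0-E2 libraries lay close together and above NC, with a log2 fold change of 0.76 (95% confidence interval 0.37 to 1.14). Scd2, a stearoyl-CoA desaturase of brain, measured 561, 624 and 553 CPM in I0-E2, against 728, 684 and 635 CPM in NC. Its libraries lay below NC without overlap, and the log2 fold change was -0.24 (-0.38 to -0.10). Scd1, the related desaturase of liver and fat, measured 3.36, 3.51 and 3.29 CPM in I0-E2 and 5.17, 4.97 and 3.25 CPM in NC, where replicate 3 overlapped the I0-E2 libraries.

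Lmna, which encodes the nuclear lamins A and C, measured 108, 120 and 118 CPM in I0-E2, against 101, 95.3 and 99.1 CPM in NC (log2 fold change 0.23, standard error 0.07). Mmp17, a membrane-anchored matrix metalloproteinase, measured 82.9, 80.3 and 85.7 CPM in I0-E2, against 73.5, 71.8 and 69.6 CPM in NC (log2 fold change 0.21, standard error 0.06). Rras2, a Ras-related GTPase, measured 47.7, 45.7 and 50.3 CPM in I0-E2, against 40.8, 42.0 and 40.5 CPM in NC. For these 3 genes each group was narrow, and the lowest I0-E2 library stood above the highest NC library. Csrp1, a LIM protein that binds actin-associated partners, was nearest to overlap, with 172, 196 and 203 CPM in I0-E2, against 171, 168 and 159 CPM in NC.

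Miga2, a mitoguardin of the outer mitochondrial membrane that promotes fusion, measured 56.9, 53.5 and 52.6 CPM in I0-E2, against 44.3, 42.9 and 49.6 CPM in NC. Grhpr, the glyoxylate and hydroxypyruvate reductase, measured 12.3, 12.5 and 12.8 CPM in I0-E2, against 9.38, 9.69 and 9.59 CPM in NC. Both groups of Grhpr were tight, and its log2 fold change was 0.39 (0.13 to 0.66). Mrpl2, a protein of the large subunit of the mitochondrial ribosome, measured 56.4, 61.5 and 61.0 CPM in I0-E2, against 50.5, 51.0 and 51.5 CPM in NC. Its log2 fold change of 0.23 became 0.02 once the count was set against the mean effective length of its transcripts in each library. Aasdhppt, which attaches phosphopantetheine to the acyl carrier domain of fatty acid synthase, measured 37.8, 36.6 and 38.9 CPM in I0-E2, against 46.0, 44.8 and 48.1 CPM in NC. It lay below NC in every library, with a log2 fold change of -0.29 (-0.47 to -0.12).

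Ptbp2, a splicing repressor of developing neurons, measured 86.9, 75.1 and 79.5 CPM in I0-E2, against 90.8, 105 and 109 CPM in NC (log2 fold change -0.33, standard error 0.09). Thoc2, a subunit of the THO complex of mRNA export, measured 97.3, 84.9 and 89.6 CPM in I0-E2, against 103, 107 and 103 CPM in NC. Trove2, the Ro60 protein that binds misfolded small RNAs, measured 67.4, 58.3 and 64.7 CPM in I0-E2, against 76.0, 72.0 and 72.4 CPM in NC. In all 3 genes replicate 1 was the highest I0-E2 library and replicate 2 the lowest. Hltf, a helicase that remodels stalled replication forks, measured 33.1, 29.2 and 32.4 CPM in I0-E2, against 35.1, 40.3 and 41.8 CPM in NC, again with replicate 2 lowest in I0-E2 (log2 fold change -0.30, standard error 0.09).

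The estimates furthest from 0 belonged to genes of few reads. Trappc8, a subunit of the TRAPP complex of vesicle trafficking (chr18:20817223-20896093 of GRCm38), measured 0.994, 0.501 and 0.822 CPM in I0-E2, against 3.01, 5.81 and 1.39 CPM in NC. The NC libraries differed from each other by more than the nearest libraries of the groups did, and the interval of its log2 fold change of -2.14 ran from -3.32 to -0.95. Pcdh17, a protocadherin of synaptic adhesion, measured 4.6, 3.63 and 4.58 CPM in I0-E2, against 6.62, 7.51 and 6.80 CPM in NC (log2 fold change -0.71, standard error 0.19). Camk2b, the beta subunit of calcium/calmodulin-dependent kinase II, measured 0.870, 1.00 and 0.940 CPM in I0-E2, against 2.53, 1.82 and 2.01 CPM in NC. For Pcdh17 and Camk2b the spread within each group was smaller than the gap between them. Fam214b measured 3.11, 3.13 and 2.23 CPM in I0-E2, against 1.32, 1.09 and 1.55 CPM in NC. Nsun7, Gpr146 and Izumo4 averaged 0.286, 0.932 and 0.843 CPM in I0-E2 and 1.31, 2.36 and 2.49 CPM in NC, with standard errors of the log2 fold change from 0.43 to 0.62.

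Some of the highest estimates came from genes that share nearly all of their sequence with a relative and are uncertain. Tmem254c measured 2.86, 4.39 and 3.29 CPM in I0-E2, against 1.44, 0.727 and 1.24 CPM in NC, and its copies Tmem254a and Tmem254b each measured 0.621, 1.38 and 0.587 CPM in I0-E2, against 2.17, 2.54 and 2.01 CPM in NC. The sum of the 3 copies overlapped between the groups, at 4.10, 7.14 and 4.46 CPM in I0-E2 and 5.77, 5.81 and 5.26 CPM in NC. The pseudogene Rpsa-ps10 averaged 2.96 CPM in I0-E2, against 0.430 CPM in NC, beside Rpsa, the ribosomal protein gene it derives from, which measured 1352, 1388 and 1625 CPM in I0-E2 and 1417, 1371 and 1395 CPM in NC. Gm48552 averaged 1.27 CPM in I0-E2, against 0.120 CPM in NC, where reads were seen in replicate 1 alone, at 0.361 CPM.

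**Figure D2:**
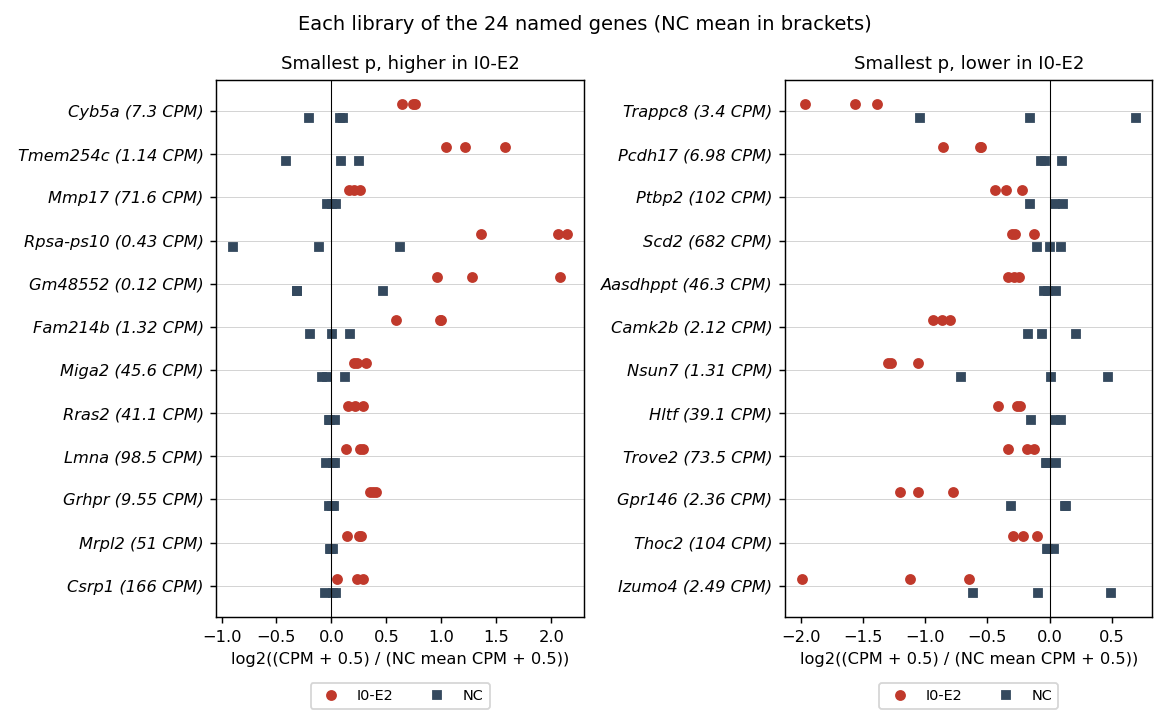
Level of the 24 named genes in each library, as log2 of (CPM + 0.5) over (the NC mean + 0.5), with red circles for the 3 I0-E2 libraries and blue squares for the 3 NC libraries. The left panel holds genes above NC and the right panel genes below NC, by the size of p from the top, and the mean CPM of NC stands in brackets. The genes over 30 CPM, such as Scd2 and Mmp17, sit within 0.5 of the NC mean, while Trappc8 and Rpsa-ps10 at a few CPM spread much further.

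The panel of 27 stress and cell cycle markers asks directly whether the exposure left a stress signature. Of the 23 that could be tested, 16 lay above NC and 7 below, with a median log2 fold change of 0.05 against 0.00 over all genes tested. The estimates ran from -0.24 for Ddit3 to 0.24 for Srxn1, and the 95% confidence intervals from -0.54 to 0.61. Dusp1, a phosphatase that switches off MAP kinases and is itself an immediate-early gene, measured 23.1, 24.8 and 27.0 CPM in I0-E2, against 21.1, 20.6 and 22.9 CPM in NC (log2 fold change 0.22, unadjusted p = 0.049 and adjusted p = 0.993 by edgeR). Ddit3, the CHOP factor of the integrated stress response, measured 17.8, 18.9 and 14.6 CPM in I0-E2, against 20.1, 21.2 and 19.2 CPM in NC (log2 fold change -0.24, unadjusted p = 0.0498 and adjusted p = 0.993 by edgeR). Dusp1 and Ddit3 were the only panel genes whose groups did not overlap.

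The immediate-early factors of the panel overlapped between the groups. Fos measured 5.97, 7.64 and 7.17 CPM in I0-E2 and 6.26, 7.03 and 6.19 CPM in NC. Egr1 measured 17.9, 18.5 and 15.9 CPM in I0-E2 and 18.4, 21.4 and 21.2 CPM in NC, and Jun measured 52.8, 53 and 54.4 CPM in I0-E2 and 51.7, 47.6 and 56.8 CPM in NC. Atf3, which several stresses induce, measured 8.08, 10.3 and 6.81 CPM in I0-E2 and 7.46, 8.24 and 6.34 CPM in NC. In none of these 4 genes did the libraries of I0-E2 all lie on the same side of NC.

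Oxidant and heat markers were as close to NC. Hmox1, which encodes the heme oxygenase that oxidants induce, measured 47.4, 48.6 and 56.3 CPM in I0-E2 and 47.2, 44.1 and 49.0 CPM in NC, so that only replicate 3 of I0-E2 lay above the NC range. Srxn1, the sulfiredoxin that restores peroxiredoxins, measured 10.8, 9.52 and 11.5 CPM in I0-E2 and 11.1, 8.12 and 7.73 CPM in NC. Nqo1, a quinone reductase and NRF2 target, measured 5.59, 8.65 and 8.34 CPM in I0-E2 and 8.18, 6.90 and 7.11 CPM in NC. The chaperone genes Hspa8, Hsph1 and Dnajb1 had log2 fold changes of -0.02, 0.05 and 0.04 (standard errors 0.05, 0.05 and 0.09). The inducible chaperone gene Hspa1a had 0 reads in the 6 libraries, which allows up to 3 reads in each, and Hspa1b and Hspb1 had too few reads to be tested.

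Markers of DNA damage and of the cell cycle also overlapped. Cdkn1a, the p21 inhibitor that p53 induces, measured 43.0, 45.6 and 46.4 CPM in I0-E2 and 43.9, 42.5 and 44.4 CPM in NC. Mdm2, the ubiquitin ligase that restrains p53, measured 145, 137 and 144 CPM in I0-E2 and 145, 143 and 147 CPM in NC. Their 95% confidence intervals were -0.10 to 0.19 for Cdkn1a and -0.15 to 0.08 for Mdm2 on the log2 scale. Mki67, the proliferation antigen, measured 748, 656 and 628 CPM in I0-E2 and 714, 736 and 739 CPM in NC, with I0-E2 replicate 1 on the other side of NC from replicates 2 and 3. Pcna, the sliding clamp of DNA polymerase, averaged 351 ± 10.8 CPM in I0-E2, against 338 ± 12.3 CPM in NC (mean ± SD, n = 3 each).

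**Figure D3:**
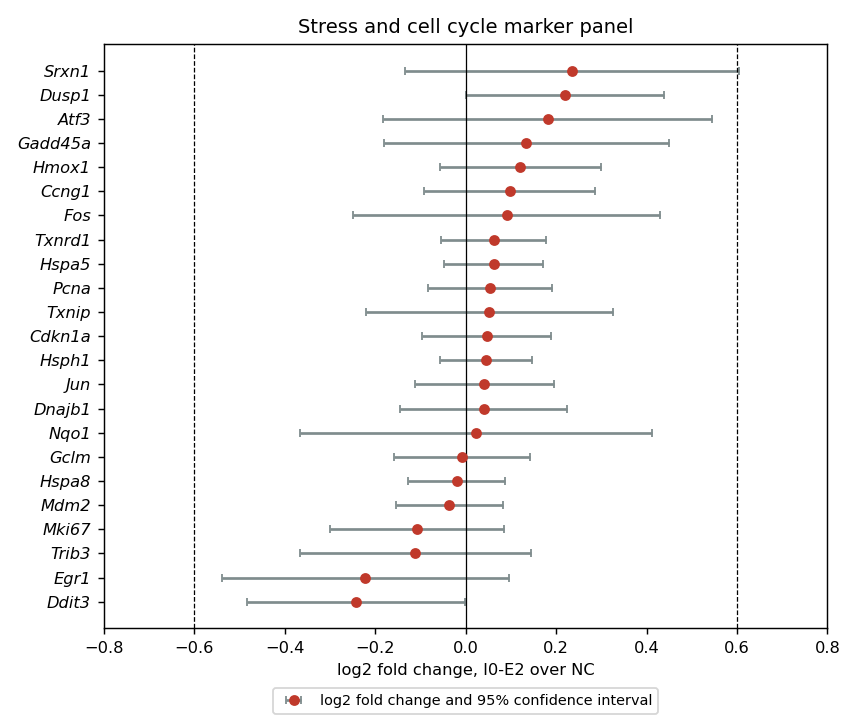
Log2 fold change (I0-E2 over NC) of the 23 tested stress and cell cycle markers with 95% confidence intervals from the quasi-likelihood fit, where dashed lines mark 0.6 and -0.6. Estimates lie between -0.24 (Ddit3) and 0.24 (Srxn1), the intervals of all but Dusp1 and Ddit3 include 0, and that of Srxn1 reaches 0.61.

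Lists of genes by role are described by counts and by the median of their log2 fold changes, beside the same over all genes tested (6173 above and 6120 below NC, median 0.00). No member of any list passed the adjusted threshold in edgeR's quasi-likelihood test. Of 31 immediate-early genes, 17 lay above NC and 14 below (median 0.03), and the highest estimate was that of Fosb, an AP-1 subunit, at 0.994, 2.00 and 1.53 CPM in I0-E2 and 0.722, 1.09 and 0.464 CPM in NC. Its replicate 1 of I0-E2 overlapped NC. Of 33 heat shock genes, 23 lay above and 10 below (median 0.03), and 3 lay above NC without overlap, where 5.8% of all genes tested did so, among them Hsp90ab1 at a log2 fold change of 0.05. Of 37 genes of the unfolded protein and integrated stress responses, 20 lay above and 17 below (median 0.01). Calr, the calreticulin chaperone of the endoplasmic reticulum, measured 1112, 1147 and 1136 CPM in I0-E2, against 1057, 1080 and 1034 CPM in NC, a log2 fold change of 0.10 with a standard error of 0.04. Its groups did not overlap and its adjusted p was 0.993 by edgeR.

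Of 33 oxidative stress genes, 26 lay above NC and 7 below (median 0.06). Sqstm1, the autophagy receptor p62 and an NRF2 target, measured 260, 275 and 284 CPM in I0-E2, against 241, 236 and 252 CPM in NC (log2 fold change 0.17, standard error 0.07). Sesn2, a sestrin that p53 and ATF4 induce, measured 30.9, 35.8 and 35.1 CPM in I0-E2, against 37.3, 36.9 and 40.8 CPM in NC (log2 fold change -0.17, standard error 0.08). Neither gene overlapped between the groups, and they lay on opposite sides of NC. Of 27 p53 and DNA damage genes, 16 lay above and 11 below (median 0.05), with Plk3 at 0.20 and the ribonucleotide reductase gene Rrm2b at -0.22, both without overlap. DNA repair genes were split evenly, with 31 above and 31 below (median 0.00), where the nuclease gene Ercc4 was at 0.29 and Ercc6 of transcription-coupled repair at -0.25.

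Of 50 genes of S phase, 37 lay above NC and 13 below (median 0.04), and 7 lay above without overlap, beside 5.8% of all genes tested, among them Gins1 of the replicative helicase at 0.20. Of 55 genes of G2 and mitosis, 24 lay above and 31 below (median -0.01). Cenpe, the kinetochore motor, measured 122, 115 and 114 CPM in I0-E2, against 124, 138 and 136 CPM in NC. Cdc25c, the phosphatase that opens mitosis, measured 16.5, 15.2 and 20.6 CPM in I0-E2 and 15.5, 13.6 and 13.8 CPM in NC, where replicate 2 of I0-E2 overlapped NC.

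Sterol genes lay mostly below NC. Cells raise them through the factor SREBP2 when membrane cholesterol is short. Of 24 genes tested, 19 lay below and 5 above, with a median of -0.09, which stayed between -0.14 and -0.04 with other scalings or with each library left out. Fdps, the farnesyl diphosphate synthase of the pathway, measured 58.5, 63.1 and 63.7 CPM in I0-E2, against 72.3, 70.0 and 66.0 CPM in NC, without overlap. Insig1, which holds SREBP2 in the endoplasmic reticulum, measured 55.3, 75.9 and 56.0 CPM in I0-E2 and 77.1, 72.8 and 75 CPM in NC, so that replicate 2 of I0-E2 lay in the NC range. Ebp, a sterol isomerase of the same pathway, measured 21.4, 22.2 and 24 CPM in I0-E2, against 17.6, 18.4 and 18.1 CPM in NC, on the other side of NC (log2 fold change 0.32, standard error 0.14). Of 35 genes of fatty acid synthesis and desaturation, 23 lay below NC and 12 above (median -0.03).

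The 13 protein-coding mRNAs of the mitochondrial genome all lay below NC, from -0.37 for mt-Nd4l to -0.12 for mt-Nd2 (median -0.18, between -0.24 and -0.09 with other scalings or with each library left out), and none had an unadjusted p under 0.05. The smallest p of the 13 was 0.0699 for mt-Nd4l (adjusted p = 0.993 by edgeR). With no filter on low counts edgeR called 3 of them, mt-Nd4l (adjusted p = 0.000852), mt-Nd4 (adjusted p = 0.000993) and mt-Nd3 (adjusted p = 0.0417), with log2 fold changes of -0.36, -0.31 and -0.29. That fit took the spread of each gene from the trend over all genes (prior degrees of freedom infinite, against 7.02 in the filtered fit). Its smaller p-values therefore do not reflect the spread of the gene itself. mt-Nd5, a subunit of complex I, measured 1298, 1434 and 1433 CPM in I0-E2, against 1577, 1463 and 1805 CPM in NC, without overlap. mt-Co1, the catalytic subunit of cytochrome oxidase, measured 1995, 2176 and 2452 CPM in I0-E2 and 2522, 2315 and 2554 CPM in NC, with replicate 3 of I0-E2 in the NC range. The share of mitochondrial reads was 1.38%, 1.57% and 1.61% in I0-E2, against 1.78%, 1.60% and 1.82% in NC, and the means of 1.52% ± 0.125 and 1.74% ± 0.118 (SD, n = 3 each) gave p = 0.2 in an exact two-sided permutation test, whose smallest possible p is 0.1. In I0-E0 the same share ran from 1.24% to 2.03%, which covers both groups. For mt-Nd4l, mt-Nd3, mt-Co2, mt-Co3 and mt-Atp6 under 2% of the 31-base words are found in no other annotated gene, so that their reads could also be assigned to other genes.

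Nuclear genes of the same complexes lay on the other side of NC. Of 51 nuclear subunits of oxidative phosphorylation, 46 lay above and 5 below (median 0.06), the highest being Ndufb3 of complex I, at 36.4, 37.3 and 40.4 CPM in I0-E2 and 27.9, 36.6 and 31.7 CPM in NC, with overlap. Atp5j, a subunit of the ATP synthase stalk, measured 134, 150 and 147 CPM in I0-E2 and 131, 134 and 123 CPM in NC, where replicate 1 of I0-E2 overlapped NC. Of 81 cytosolic ribosomal protein genes, 70 lay above and 11 below (median 0.07, between 0.03 and 0.10 with other scalings or with each library left out). Of 32 proteasome subunits, 29 lay above and 3 below (median 0.06), and 8 of them lay above without overlap, beside 5.8% of all genes tested, such as Psmb6 of the catalytic core at 153, 163 and 169 CPM in I0-E2, against 144, 149 and 153 CPM in NC. Psmb6 replicate 1 of I0-E2 and replicate 3 of NC nearly coincided.

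Glycolysis and hypoxia genes lay above NC in 24 of 33 cases (median 0.06). Slc16a3, the lactate exporter, measured 144, 163 and 163 CPM in I0-E2, against 140, 134 and 138 CPM in NC, without overlap. Slc2a1, the glucose transporter GLUT1, measured 32.7, 28.9 and 33.8 CPM in I0-E2 and 29.6, 27.9 and 25.4 CPM in NC. Genes of membrane repair, which annexins and the ESCRT complexes carry out after plasma membrane tears, lay above NC in 24 of 30 cases (median 0.04). Vps25 of ESCRT-II measured 97.3, 97.6 and 101 CPM in I0-E2, against 85.9, 91.9 and 88.6 CPM in NC, and 37.8% of its 31-base words are found in no other annotated gene. Ctsb, the lysosomal protease cathepsin B, measured 390, 409 and 439 CPM in I0-E2, against 383, 386 and 360 CPM in NC (log2 fold change 0.13, standard error 0.06).

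**Figure D4:**
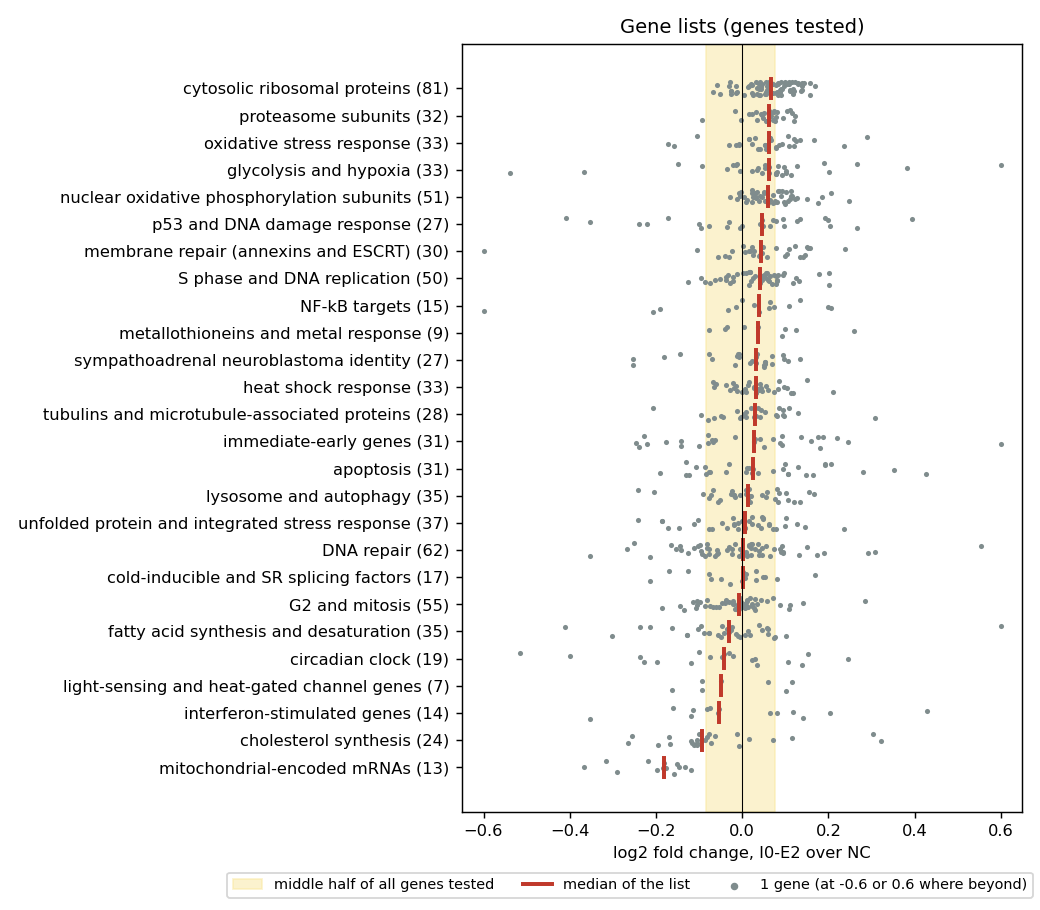
Log2 fold change (I0-E2 over NC) of each tested member of 26 gene lists, 1 grey point per gene and a red bar for the median of the list, with the number of genes tested in brackets. The yellow band runs from the lower to the upper quartile of all genes tested, and points beyond 0.6 are drawn at that value. The medians run from -0.18 for mitochondrial-encoded mRNAs to 0.07 for cytosolic ribosomal proteins, and the medians of mitochondrial-encoded mRNAs and cholesterol synthesis lie left of the band.

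Neuronal identity and light or heat sensing were checked in the same way. Of 27 tested genes of sympathoadrenal neuroblastoma identity, 16 lay above NC and 11 below (median 0.03). Isl1, a LIM homeodomain factor of sympathetic neurons, measured 27.0, 22.9 and 27.0 CPM in I0-E2, against 28.9, 28.2 and 35 CPM in NC (log2 fold change -0.25, standard error 0.11). Ngfr, the p75 receptor for nerve growth factor, measured 406, 411 and 462 CPM in I0-E2 and 407, 378 and 381 CPM in NC. Isl1 lay below NC in every library and Ngfr overlapped. Of 21 genes of light-sensing and heat-gated channels, 7 had enough reads to be tested. Trpv2, a channel that opens at noxious heat, measured 51.5, 45.4 and 46.2 CPM in I0-E2, against 42.8, 44.0 and 45.2 CPM in NC. Replicate 2 of I0-E2 and replicate 3 of NC nearly coincided.

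The level of the leading genes was also followed over the fluencies of this intensity, by dwelling time from NC through I0-E0 and then I0-E2 to I0-E4. These genes were chosen by their difference between I0-E2 and NC, so extreme levels in either group were favoured in advance. The order of their means is therefore no test of dwelling time. Cyb5a averaged 7.30 ± 0.905, 9.04 ± 1.08, 12.3 ± 0.539 and 8.76 ± 0.519 CPM (SD, n = 3 each), with the highest of these means in I0-E2. Scd2 averaged 682, 625, 580 and 594 CPM, and Ptbp2 averaged 102, 79.8, 80.5 and 83.7 CPM. Lmna averaged 98.5, 110, 115 and 122 CPM. Compared without NC, edgeR's quasi-likelihood test called 0 of 12296 genes (0%) in I0-E2 against I0-E0, with 346 at an unadjusted p under 0.05 (2.81%), 106 above (0.862%) and 240 below (1.95%), and 0 genes (0%) in I0-E2 against I0-E4, with 393 at that level (3.2%), 205 above (1.67%) and 188 below (1.53%). DESeq2 called 1 gene in each of these comparisons and limma-voom called 0. Without I0-E0 replicate 3, edgeR's unadjusted counts against I0-E0 were 113 above and 115 below of 12466 genes. The lean to genes below I0-E0 was thus not seen without that library. It had 20042 genes with a read, against 16798 and 16718 in I0-E0 replicates 1 and 2. Without I0-E4 replicate 3, edgeR's unadjusted counts against I0-E4 rose to 459 above and 525 below of 12520 genes. In that fit 0 genes passed the adjusted threshold. The comparisons with NC, I0-E0 and I0-E4 all share the I0-E2 libraries.

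Single transcripts were compared next, since an exposure may change which mRNA of a gene is made while its sum stays. edgeR's quasi-likelihood test called 0 of 32149 transcripts (0%), with 899 (2.8%) at an unadjusted p under 0.05, 468 above NC (1.46%) and 431 below (1.34%). limma-voom and limma-trend called 0 and DESeq2 called 54. The common biological coefficient of variation was 61.3% for transcripts against 8.26% for genes, so single transcripts were measured with far less precision. In 3126 transcripts (9.72%) the groups did not overlap, 1587 above NC (4.94%) and 1539 below (4.79%). Several of the leading ones by p had reads in I0-E2 or in NC alone. Nr1h2-202, a transcript of the liver X receptor beta gene, measured 13.1, 3.31 and 5.51 CPM in I0-E2, against 0 CPM in the 3 NC libraries, 18.5-fold higher when NC is set at 3 reads per library. Mgat1-203, of the gene that starts complex N-glycans, measured 0 CPM in the 3 I0-E2 libraries, against 11.9, 3.89 and 11.2 CPM in NC, 24.5-fold lower with I0-E2 set in the same way. At the level of the gene the log2 fold changes were 0.08 for Nr1h2 and 0.02 for Mgat1, and 0.00% and 1.35% of the 31-base words of the transcripts are found in no other transcript. Their values of 0 thus rest on how Salmon divided shared reads, and setting them at 3 reads does not bound the fold. Fam92a-208, Sox6-210 and Rexo5-202 had 0 CPM in I0-E2 and 4.2, 3.56 and 2.44 CPM on average in NC, and Unc80-203 had 0.825 CPM in I0-E2, against 0 CPM in NC. Their genes had log2 fold changes between -0.32 (Sox6) and 0.08 (Fam92a).

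The share of a transcript in the count of its gene was tested in 7498 genes with limma's diffSplice. It called 7 genes at an adjusted p under 0.05 by the Simes method (0.0934%), while 727 genes (9.7%) had an unadjusted p under 0.05. On simulated data in which known transcripts were changed, the share of wrong calls by diffSplice was above the nominal level. Each simulated transcript varied on its own, while real transcripts divide the reads of their gene, so the share of wrong calls here is not known. Its adjusted p-values here may be too small and are not to be taken at face value. Among the calls were Sptbn1, Katna1, Sun2, Map7d2, Pan3 and Sec16a, and the calls depended on the processing. With only the transcripts that hold at least 5% of the count of their gene, diffSplice called 0 genes, with 565 at an unadjusted p under 0.05. With the F test of each gene in place of Simes it called 3. It called 4 without NC replicate 1, 16 without NC replicate 2, 9 without NC replicate 3, 26 without I0-E2 replicate 1, 3 without I0-E2 replicate 2 and 2 without I0-E2 replicate 3. Of 10 alternatives, 9 called Sptbn1, 6 Katna1, 4 Map7d2, 3 Sun2, 3 Sec16a and 2 Pan3.

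Short stretches that separate transcripts of 4 of these genes are shown because the share of a transcript rests on the reads that fall where the partners differ. They come from GENCODE vM21 on GRCm38 and run 5′ to 3′ along the transcript, where capitals mark the bases that the named transcript holds and its partner lacks, and small letters are bases that both hold. Katna1-202 (1775 bases) and Katna1-201 (1774 bases) are the same but for 1 base at the 3′ end of the 3′ UTR (chr10:7763121-7763150, plus strand). The coding stretch that Sun2-201 holds and Sun2-203 lacks is 6 bases long (capitals at chr15:79735920-79735925, minus strand). Map7d2-203 holds a coding exon of 99 bases (exon 5 of 17, chrX:159460267-159460365, plus strand) that Map7d2-201 lacks, and these partners also differ by 561 bases at the 5′ end and 174 bases of 3′ UTR of Map7d2-203 and by 251 bases of 5′ UTR of Map7d2-201, which are not shown. Sun2-201 also holds 32 bases of 5′ UTR of its own, and the Sun2 and Sec16a partners differ by 2 bases at their ends. Sec16a-202 holds a coding exon of 60 bases (exon 29 of 31, chr2:26413679-26413738, minus strand) that Sec16a-201 lacks.
Katna1-202: gttctgaataaagactatttttaagctgcT
Katna1-201: gttctgaataaagactatttttaagctgc
Sun2-201: tcctaaccagGTCCAGgcacttctcg
Map7d2-203: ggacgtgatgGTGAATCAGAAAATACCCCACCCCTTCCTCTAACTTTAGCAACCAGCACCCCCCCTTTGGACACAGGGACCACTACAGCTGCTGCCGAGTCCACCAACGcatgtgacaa
Sec16a-202: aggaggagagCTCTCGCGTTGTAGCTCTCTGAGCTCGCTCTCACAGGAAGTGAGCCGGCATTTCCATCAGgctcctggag

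Sptbn1 encodes the beta-II spectrin of the membrane skeleton, and its sum measured 656 ± 18.1 CPM in I0-E2, against 650 ± 22.0 CPM in NC (mean ± SD, n = 3 each). Sptbn1-201 took 55.3%, 61.2% and 62.4% of the count of the gene in I0-E2, against 41.9%, 51.3% and 35.6% in NC (adjusted p = 0.00024 by limma's diffSplice). Sptbn1-202 took 35.9%, 32.0% and 30.8% in I0-E2, against 50.7%, 41.0% and 54.1% in NC. All 3 I0-E2 libraries lay on one side of NC for both transcripts, and Sptbn1-201 took 32.1% to 54.8% in the 12 libraries of the batch other than I0-E2. Sptbn1-202 lies wholly inside Sptbn1-201, which adds 222 bases of 5′ UTR (chr11:30267948-30268169, minus strand) and 1 base at the 3′ end, so that no 31-base word is found in Sptbn1-202 alone.

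Katna1 encodes the catalytic subunit of katanin, which severs microtubules, and its sum measured 53.5 ± 2.25 CPM in I0-E2, against 53.7 ± 3.58 CPM in NC (mean ± SD, n = 3 each). Katna1-202 took 33.2%, 92.7% and 91.1% of the count in I0-E2, against 31.7%, 32.5% and 33.4% in NC (adjusted p = 0.00589 by limma's diffSplice). Katna1-201 took 64.0%, 6.0% and 7.97% in I0-E2, against 66.6%, 63.4% and 61.5% in NC. I0-E2 replicate 1 overlapped NC, and replicates 2 and 3 alone set the difference. In the 12 libraries of the batch other than I0-E2 the share of Katna1-202 was 29.9% to 34.1%. The 2 transcripts differ by the last base printed above.

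Sun2 encodes a SUN domain protein that links the nuclear lamina to the cytoskeleton, and Sun2-201 took 84.3%, 70.6% and 70.0% of its count in I0-E2, against 45.4%, 31.7% and 47.7% in NC. Sun2-203 took 2.67%, 17.6% and 9.70% in I0-E2, against 21.0%, 27.3% and 27.2% in NC. The groups did not overlap for either transcript, while Sun2-201 took up to 77.5% in another library of the batch. Map7d2 encodes a microtubule-associated protein, and Map7d2-203, which holds the exon of 99 bases, took 68.2%, 69.3% and 68.2% in I0-E2, against 55.6%, 61.7% and 55.6% in NC. Map7d2-201 took 14.3%, 15% and 12.7% in I0-E2, against 26.5%, 23.6% and 26.3% in NC. The NC libraries were the highest of the batch for Map7d2-201, since the 12 exposed libraries, I2-E2 among them, ran from 3.96% to 16.4%.

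Sec16a encodes a scaffold of the exit sites of the endoplasmic reticulum, and Sec16a-202, which holds the exon of 60 bases, took 58.4%, 67.1% and 77.4% in I0-E2, against 44.0%, 51.9% and 44.5% in NC. Sec16a-201 took 19.6%, 12.2% and 0.0328% in I0-E2, against 38.3%, 26.9% and 26.6% in NC. Sec16a-202 lay above NC in every I0-E2 library, and it took 30.6% to 51.9% in the 12 libraries of the batch other than I0-E2. The adjusted p was 0.0164 for Sun2, 0.0237 for Map7d2 and Pan3 and 0.0303 for Sec16a by limma's diffSplice.

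Pan3 encodes a subunit of the nuclease that shortens poly(A) tails, and was the only gene of those named here whose sum also had an unadjusted p under 0.05, at 62.3 ± 2.60 CPM in I0-E2, against 72.2 ± 2.91 CPM in NC (mean ± SD, n = 3 each, log2 fold change -0.21, adjusted p = 0.993 by edgeR). Pan3-201 took 38.0%, 49.9% and 50.0% in I0-E2, against 15.9%, 20.6% and 19.8% in NC, and Pan3-208 took 8.43%, 3.32% and 6.96% in I0-E2, against 18.5%, 28.5% and 24.5% in NC. Pan3-201 holds 1008 bases at the 5′ end and 6 at the 3′ end that Pan3-208 lacks, and Pan3-208 holds 118 internal bases of its own. Pan3-201 lay above NC in all 12 exposed libraries of the batch, at 27.2% to 51.6%, and both ends of this range were I2-E2 libraries, of higher intensity. The other genes named here had log2 fold changes of the sum between -0.04 and 0.06. Apart from Map7d2-203, of which 21.0% of the 31-base words are found in no other transcript, the transcripts described here had under 6% of such words, so that their shares are estimates that Salmon made from few reads of their own.

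**Figure D5:**
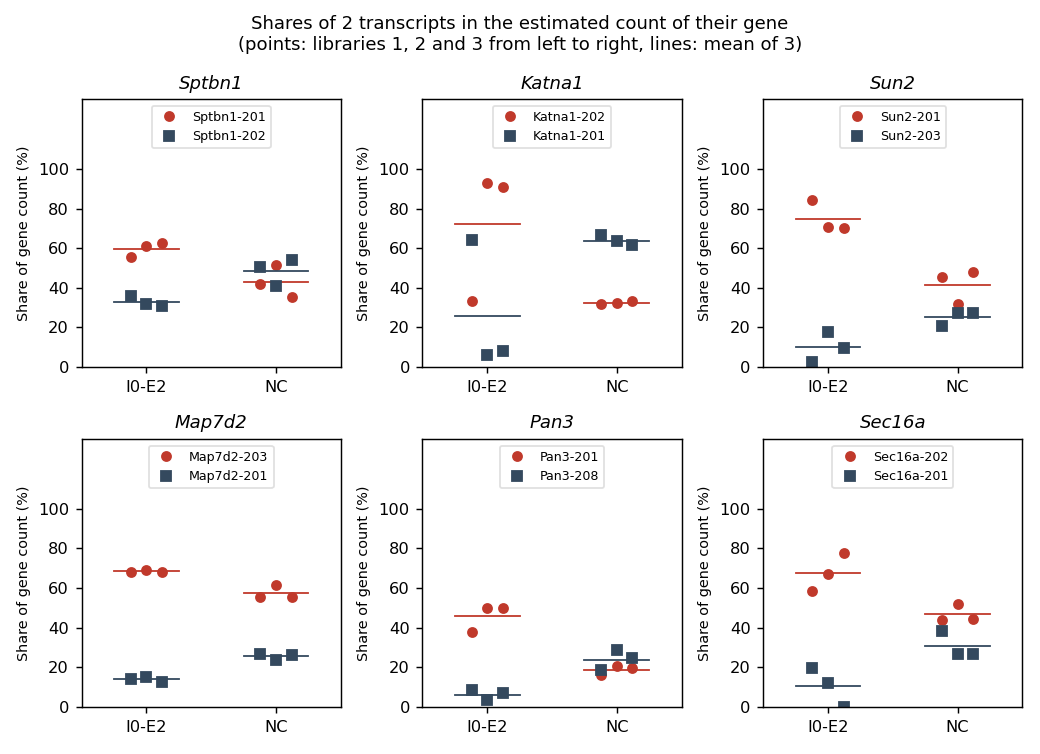
Share of 2 transcripts in the estimated count of their gene (percent) for 6 of the 7 genes called by diffSplice, with I0-E2 on the left and NC on the right of each panel, points for libraries 1 to 3 from left to right and lines for the mean of 3. In Katna1 I0-E2 libraries 2 and 3 stand at 92.7% and 91.1% for Katna1-202 while library 1 stays at 33.2% with NC, and in Sun2, Map7d2 and Pan3 the points of both transcripts separate the groups.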

How the data were processed

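The authors ran Salmon, which assigns reads to transcripts, and deposited for each library an estimated count, a TPM value (a share of transcripts, scaled for length) and an effective length for each transcript. The effective length is another quantity in the deposited files, in bases, and served only as an offset in 1 alternative. For the version of Salmon, its transcript set and the build, the answer is not given in the sources used here. GENCODE vM21 on GRCm38 matched 105915 of 107368 transcripts (98.6%), which were summed to 34083 genes. Unmatched transcripts held 0.664% to 0.715% of the estimated count of a library.

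Estimated counts were rounded and filtered with filterByExpr (minimum count 10), scaled by TMM and fitted with edgeR 4.0.16 (R 4.3.3) by the quasi-likelihood test on the 15 libraries of batch 1 with group as the only factor, which left 10 residual degrees of freedom. P-values were adjusted by Benjamini-Hochberg with a threshold of 0.05. Libraries that measured 6460014 to 8636798 reads gave the precision stated for each level. Transcript shares were tested with diffSplice of limma 3.58.1. DESeq2 1.42.0, limma-voom, limma-trend, other scalings, no filter, the 6 libraries alone, a replicate block and each library left out were tried as alternatives. A gene was said to share reads where under 95% of its 31-base words were its own. The genes named were the 12 of smallest p in each direction without overlap between the groups, the marker panel, and list members with the smallest p or the outermost estimates. Other members were named after their values were seen. Members and lists were chosen with earlier results of these data known. The statistical code was tested on simulated data, where the share of wrong calls by diffSplice was above nominal. The study's own test used limma. The 5 libraries of batch 2 were not used. Figures were drawn with matplotlib 3.10.9. A few list members and 1 gene called by transcript share are not reported here.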

Additional observations from a re-analysis of the deposited data

How the results depend on the processing

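For I0-E2 against NC, the count of genes past the threshold was 0 with limma-voom, limma-trend, DESeq2, other scalings and the 6 libraries alone, and 0 to 1 with each library left out (Gm2446 without NC replicate 1 and Fam220a without NC replicate 2). With no filter on low counts edgeR called 46 of 25283 genes. By the 95% limit on 31-base words, 42 of them share reads with other genes, mt-Nd4l, mt-Nd4 and mt-Nd3 among them. Wdhd1 and Fyb, counted in these 42, lie just under the limit, with 93.9% and 94.0% of words their own. The others of the 46 are Trappc8, Ptbp2, Zbtb20 and Cyb5a. For transcripts DESeq2 called 54, and leaving out each library gave 0 to 6. Against I0-E0 DESeq2 called 1 gene and the fit with no filter 113. Against I0-E4 DESeq2 called 1 gene and the fit with no filter 55. The fit with no filter took the spread of each gene from the trend over all genes, so its calls do not reflect the spread of single genes. For transcript shares the F test called 3 genes, the limit of 5% of the count of the gene 0, and leaving out each library 2 to 26. Libraries of the same number did not deviate together (r of -0.08, 0.02 and -0.01 for numbers 1 to 3). With 3 libraries a group this cannot tell whether they were handled together, which the labels do not say. The replicate block called 0 genes, 0 transcripts and 12 genes by transcript share. The 24 named genes kept their direction in all 371 estimates from the alternative fits. They were chosen because their groups did not overlap, so their direction could hardly reverse. Depth limits the genes below 10 CPM and the transcripts with few 31-base words of their own, and 3 libraries a group allow no exact p under 0.1.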
